A study of Sus scrofa with 3 samples.

Results

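Kidney RNA of castrated male pigs given testosterone (CMT) was set against kidney RNA of intact male pigs (IM), with castrated males given no hormone (CM) as the third point of reference. All pigs were Wuzhishan pigs, a Chinese miniature breed, aged 6 to 7 months, and all were fed a diet high in fat and cholesterol, so that no group on a plain diet enters these values. RNA of 3 pigs was pooled in equal amounts for each group and each pool gave 1 library of raw counts per gene, so 9 pigs gave 3 libraries and no group has a replicate. How much testosterone was given, how long after castration and what blood level it reached are not given in the sources used here. Genes with a mean of at least 1 CPM (counts scaled to a common library size) over the 3 libraries were compared, which were 15472 of the 34570 genes listed. The question was which genes stood away from the intact level once testosterone was replaced, either because castration had moved them and they did not come back or because they passed the intact level.

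Testosterone and its reduced form dihydrotestosterone are steroid hormones that act mainly by switching target genes on or off in the nucleus. The kidney responds to them mainly in the proximal tubule, the segment that reabsorbs most filtered solutes and that also takes up, oxidises and conjugates steroids, drugs and fatty acids. Removal of the testes takes away the main source of the hormone and changes the feedback on the pituitary, and a replaced hormone arrives at a level and rhythm set by the dose.

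The libraries held 16459771 counts in IM, 18503537 in CM and 13601475 in CMT. To be called higher or lower, a gene had to have the whole exact 95% interval of its fold beyond 2-fold. That interval stands in brackets after each fold and takes in counting error alone. CMT was called higher than IM for 140 genes (0.905% of those compared) and lower for 92 (0.595%), 232 genes (1.5%) in all. The interval lay wholly within 2-fold of IM for 12039 genes (77.8%) and crossed the 2-fold line for 3201. The median log2 fold of all compared genes was -0.01, and 7463 genes lay above 0. By the same rule CM was called apart from IM for 420 genes (2.71%), 185 higher (1.2%) and 235 lower (1.52%), and CMT was called apart from CM for 456 (2.95%), 285 higher (1.84%) and 171 lower (1.11%). The 140 higher genes together took 0.315% of the counts in IM, 0.566% in CM and 1.21% in CMT, and the 92 lower genes took 0.215%, 0.146% and 0.0648%. The comparisons share the IM library, so a gene whose level was particular to the 3 intact pigs and a gene changed by castration and left changed under testosterone cannot be told apart, and no difference below has a replicate check.

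**Figure D1:**
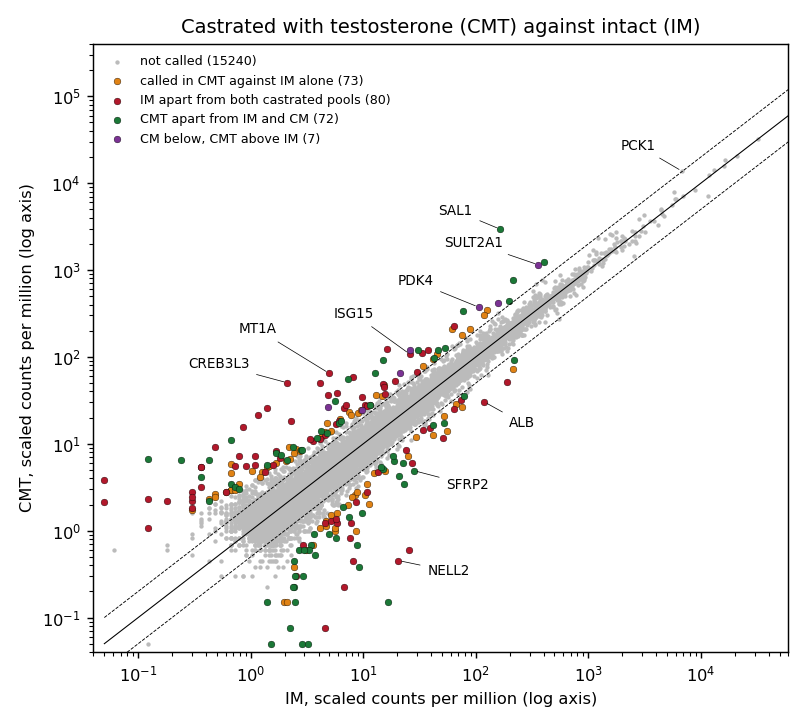
Scaled counts (CPM) of each compared gene in IM (x axis) and in CMT (y axis), both on log axes. The solid line marks equal levels and the broken lines 2-fold differences; coloured points are the 232 called genes by their pattern over the 3 libraries, and genes with 0 counts in a library are drawn near the edge. PCK1 lies on the upper broken line, and SAL1 and SULT2A1 lie above it.

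The 232 genes fell into 4 patterns, set by how CM stood to the other libraries. For 80 genes (34.5%) CM and CMT were both called apart from IM in the same direction, 55 higher and 25 lower. For 7 genes (3.02%) CM was called below IM and CMT above it. For 72 genes (31%) CMT was called apart from both IM and CM in the same direction while CM was not called against IM, 35 higher and 37 lower. For the remaining 73 genes (31.5%), 43 higher and 30 lower, only CMT against IM was called, and the CM level lay between the other levels in all 73.

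The 7 genes that fell in CM and stood above the intact level in CMT included 2 enzymes of steroid metabolism, HSD17B6 and SULT2A1. No gene showed the opposite pattern, high in CM and below IM in CMT. HSD17B6, a hydroxysteroid dehydrogenase that oxidises androgen metabolites back to active hormone, had 428 counts in IM, 76 in CM and 1607 in CMT, or 25.8, 4.02 and 121 CPM. Its CMT level was 4.7-fold that of IM (4.22 to 5.24) and 30.2-fold that of CM. SULT2A1, which sulfonates dehydroepiandrosterone, bile acids and other hydroxysteroids, had 5929 counts in IM, 2 in CM and 15219 in CMT. Its level was almost lost in the untreated castrates, at 0.106 CPM, and at 1150 CPM in CMT it stood 3.21-fold above the 358 CPM of IM (3.12 to 3.31). LOC102165433, the gene listed next to SULT2A1 in RefSeq (assembly Sscrofa11.1), had 80, 18 and 347 counts in IM, CM and CMT, a CMT level 5.43-fold that of IM (4.24 to 7.01). SULT2A1 also stands in the adrenal cortex marker list. Of its other members CYP17A1, NR5A1 and MRAP were at 0 counts in all 3 libraries. CYP11A1 had 2, 2 and 0 counts, STAR 12, 3 and 13, and HSD3B1 14, 17 and 8. SCARB1, the only other member with enough counts to compare, had 459, 527 and 330 in IM, CM and CMT.

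The other members of that pattern serve fuel use, contraction and lipid transport. PDK4, the kinase that switches off pyruvate dehydrogenase when fatty acids are burnt, had 1753 counts in IM, 770 in CM and 4952 in CMT, and its CMT level was 3.53-fold that of IM (3.35 to 3.73). ACTC1, the actin of heart muscle, had 2588, 505 and 5506 counts, a CMT level 2.66-fold that of IM (2.54 to 2.79). Of the other muscle markers MB, NEB and MLC2V were at 0 in all libraries, ACTA1 had 40, 44 and 28 counts and CKM 412, 387 and 275 in IM, CM and CMT, so that the summed level of the list, 254, 117 and 497 CPM, followed ACTC1. MFSD2A, a transporter of lysophosphatidylcholine, had 161 counts in IM, 38 in CM and 322 in CMT, 2.5-fold above IM (2.06 to 3.04), and this call was lost when libraries were scaled by their total counts. The last member, LOC100153899, is known by its number only and had 348, 46 and 863 counts, a CMT level 3.1-fold that of IM (2.74 to 3.52).

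A larger set of genes stood high in CMT alone. SAL1, a lipocalin known from boar saliva that carries small odorant steroids, had 2721 counts in IM, 5352 in CM and 39149 in CMT, or 164, 283 and 2958 CPM. The CMT pool was 18-fold above IM (17.3 to 18.7) and 10.4-fold above CM, and CM itself lay 1.72-fold above IM. KCNU1, a potassium channel best known from sperm, had 210, 116 and 856 counts in IM, CM and CMT, 5.1-fold above IM (4.38 to 5.96). ANGPTL4, a secreted inhibitor of lipoprotein lipase and a target of the PPAR receptors, had 1275 counts in IM, 697 in CM and 4467 in CMT, 4.38-fold above IM (4.12 to 4.67). PDHB, a subunit of the pyruvate dehydrogenase that PDK4 inhibits, had 3532, 2689 and 10236 counts, 3.63-fold above IM (3.49 to 3.77). Of the 35 genes that stood high in CMT alone, the interval of CM against IM lay wholly below 1 for 18, among them KCNU1, ANGPTL4 and PDHB, held 1 for 14 and lay wholly above 1 for 3, so that more than one shape sits in this pattern.

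**Figure D2:**
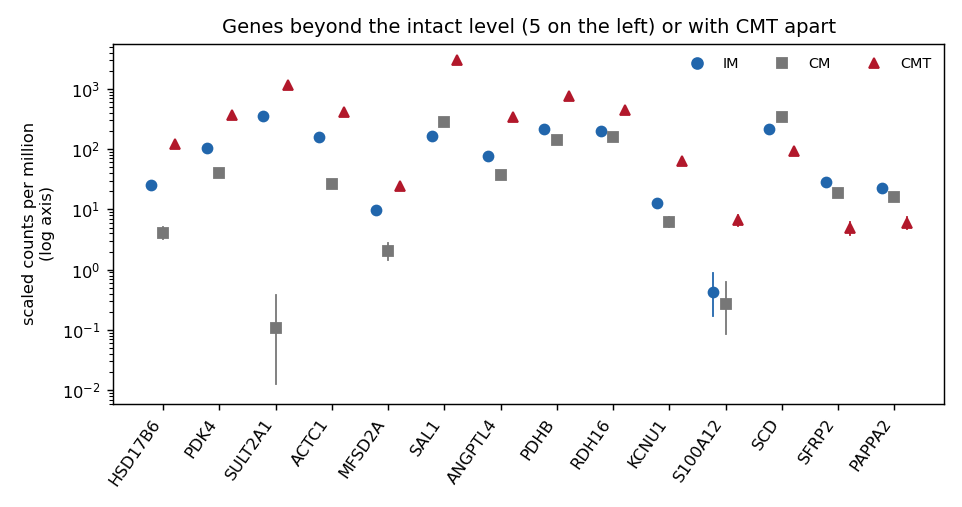
CPM (log axis) of genes called beyond the intact level or apart in CMT, 1 point per library for IM, CM and CMT. Error bars are exact 95% counting intervals and say nothing of the spread between pigs. SULT2A1 falls to 0.106 CPM in CM and reaches 1150 CPM in CMT.

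Short-chain dehydrogenases of retinol and 3-hydroxysteroids were among the genes that stood high in CMT. RDH16, a retinol dehydrogenase, had 3293 counts in IM, 3019 in CM and 5863 in CMT, 2.23-fold above IM (2.13 to 2.33). SDR9C7, a relative of RDH16, had 39, 25 and 123 counts, 3.95-fold above IM (2.73 to 5.81). In the RefSeq order these genes are followed by LOC100512656, with 28, 16 and 104 counts, and LOC100626199, with 104, 53 and 245 counts, which were 4.65-fold (3.04 to 7.33) and 2.95-fold (2.33 to 3.74) above IM. All 4 neighbours were called higher in CMT than in IM. Whether the numbered genes belong to the same family was not tested. Reads of related genes may be shared between them in a way the counts do not show.

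A few stress and immediate-early genes were called higher in CMT. Of 44 compared genes of the heat shock and immediate-early list, 5 were called higher than IM, where 0.905% of all compared genes were, 1 was called lower and the others were not called. Of the list 32 lay above 0, and the median log2 fold was 0.25, beside -0.01 for all genes. In CM the median of the same list against IM was -0.33, with 10 of 44 above 0 and none called. FOS, a subunit of the transcription factor AP-1, had 706 counts in IM, 633 in CM and 1276 in CMT, 2.26-fold above IM (2.06 to 2.48), a call lost with scaling by total counts. C-JUN, its partner, had 763, 945 and 1581 counts, 2.59-fold above IM (2.38 to 2.83). ZFP36, which marks inflammatory mRNAs for decay, had 93, 76 and 413 counts, 5.56-fold above IM (4.43 to 7.03). The nuclear receptor NOR-1 was 3.11-fold above IM (2.08 to 4.74) and the stress gene GADD45G 2.39-fold (2.2 to 2.59). HSP70.2, an inducible chaperone that the list does not hold, had 6649 counts in IM, 6583 in CM and 16312 in CMT, 3.07-fold above IM (2.98 to 3.16). The called exception was HSP27, a small chaperone, which had 1255, 1047 and 347 counts and stood 2.89-fold lower in CMT than in IM (2.57 to 3.27).

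A calgranulin and a transfer RNA were also high in CMT alone. S100A12, a calcium-binding protein of granulocytes, had 7 counts in IM, 5 in CM and 87 in CMT, 15.5-fold above IM (7.23 to 39.8). Of the 12 compared macrophage and granulocyte markers, MSR1 and S100A12 were called higher in CMT than in IM (16.7%). Of all compared genes 0.905% were called higher. The MSR1 call was lost with total-count scaling and with libraries thinned to equal depth. Of these markers 11 lay above 0, with a median log2 fold of 0.50. The summed level of the list was 132, 171 and 210.3 CPM in IM, CM and CMT. S100A8 had 1, 4 and 4 counts and S100A9 1, 4 and 7, so these usual companions of S100A12 were near 0 in every library, and the part of white blood cells in the S100A12 value was not tested. A row named tRNA-Arg had 4, 2 and 86 counts, 26.9-fold above IM (10.1 to 101), and copies of such short RNAs cannot be told apart by reads.

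Among the 37 genes that stood low in CMT alone, 10 had a symbol. SCD, the desaturase that makes oleate from stearate, had 3593 counts in IM, 6438 in CM and 1214 in CMT. It stood 2.37-fold lower in CMT than in IM (2.22 to 2.53) and was the only called member of 24 compared genes of fatty acid and triglyceride synthesis, whose median log2 fold was -0.09. SFRP2, a secreted antagonist of Wnt ligands, had 466, 352 and 65 counts, 5.73-fold lower in CMT than in IM (4.41 to 7.55). PAPPA2, a protease that frees insulin-like growth factors from their binding proteins, had 374, 298 and 80 counts, 3.74-fold lower in CMT (2.93 to 4.82). CST6, a cystatin that blocks cysteine proteases, had 868, 1094 and 230 counts, 3.02-fold lower (2.61 to 3.5).

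Other genes of the same pattern serve DNA replication, chromatin, protein secretion and cell division. RPA3, the small subunit of the protein that coats single-stranded DNA, had 39 counts in IM, 56 in CM and 3 in CMT, 10.4-fold lower in CMT than in IM (3.3 to 52.6). INO80B, a subunit of a chromatin remodeller, had 47, 38 and 0 counts, at least 9.79-fold lower in CMT than in IM, which is the near end of its exact interval. SRP14, part of the particle that guides new secretory proteins, had 312, 323 and 84 counts, 2.97-fold lower (2.33 to 3.82), and the kinetochore gene NSL1 had 49, 52 and 8, 4.9-fold lower (2.3 to 12). For all 37 genes the interval of CM against IM held 1 in 20, lay wholly above 1 in 11 and wholly below 1 in 6.

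In the 80 genes with IM apart from both castrated pools, the level under replaced hormone was away from that of the intact pool. Of the 55 higher ones, 39 were not called between CMT and CM, 14 were lower in CMT than in CM and 2 were higher. Of the 25 lower ones, 24 were not called between CMT and CM and 1 was higher in CMT. The 2 that went further from IM under testosterone were CREB3L3 and TTR, and the 1 that moved back toward IM from below was ALB.

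Metallothioneins, small cysteine-rich proteins that hold zinc and copper, came part of the way back. MT1A had 82 counts in IM, 4013 in CM and 860 in CMT, or 4.95, 212 and 65 CPM. It stood 42.9-fold above IM in CM and still 13.1-fold above IM in CMT (10.5 to 16.7). MT-2B had 271, 7318 and 1615 counts, 7.46-fold above IM in CMT (6.55 to 8.51), and MT-III had 38, 1073 and 243, 8-fold above IM (5.67 to 11.6). In the RefSeq order LOC100739663 and LOC102166944, the latter typed as miscRNA, lie between MT-2B and MT1A. With 68, 4635 and 662 counts and with 13, 900 and 97 counts they took the same course. They stood 12.2-fold (9.48 to 15.9) and 9.33-fold (5.21 to 18.2) above IM in CMT. The 26 compared genes of the metallothionein and metal-handling list had a median log2 fold of 0.03. The 3 named metallothioneins were its called members, all higher. They were 11.5% of its compared genes, where 0.905% of all compared genes were called higher. Reads of metallothionein genes are alike enough that the split between them is uncertain.

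**Figure D3:**
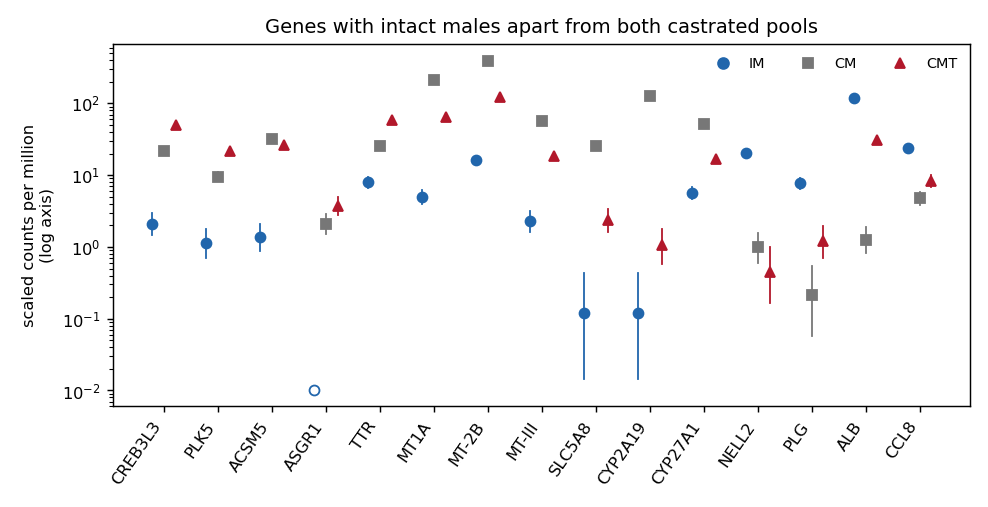
CPM (log axis) of genes with IM apart from both castrated pools, 1 point per library for IM, CM and CMT. Error bars are exact 95% counting intervals; the open symbol at the foot marks the 0 counts of ASGR1 in IM. MT1A rises from 4.95 CPM in IM to 212 in CM and stands at 65 in CMT.

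Several genes best known from liver stood high in both castrated pools. CREB3L3, a membrane-bound transcription factor of fasting liver, had 35 counts in IM, 411 in CM and 667 in CMT, 23.8-fold above IM in CMT (17 to 34.5) and 2.32-fold above CM. TTR, the carrier of thyroxine and of the retinol-binding protein, had 133, 489 and 775 counts, 7.29-fold above IM (6.06 to 8.83) and 2.26-fold above CM. ASGR1, a subunit of the receptor that clears desialylated glycoproteins, had 0, 40 and 50 counts, at least 16.3-fold above IM in CMT by the near end of its exact interval. ACSM5, a mitochondrial medium-chain acyl-CoA synthetase, had 23, 610 and 343 counts, 18.7-fold above IM (12.2 to 29.8). TFR2, a sensor of iron-loaded transferrin, had 28, 229 and 108 counts, 4.83-fold above IM (3.16 to 7.6).

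Other liver genes took the opposite course. ALB, the gene of serum albumin, had 1952 counts in IM, 24 in CM and 404 in CMT, or 118, 1.27 and 30.5 CPM, so that CMT was 24-fold above CM and still 3.86-fold below IM (3.47 to 4.31). PLG, plasminogen, had 128, 4 and 16 counts, 6.4-fold lower in CMT than in IM (3.79 to 11.5). AFP, alpha-fetoprotein, had 194, 6 and 111 counts and was 1.4-fold lower in CMT than in IM (1.1 to 1.78), which was not called. Of 18 compared liver markers TTR and ASGR1 were thus called higher and ALB and PLG lower. Those called were 22.2% of the compared markers, beside 1.5% of all compared genes. The list's summed level was 593, 543 and 623 CPM in IM, CM and CMT. CPS1, a defining gene of hepatocytes and of the gut, was at 0 in every library, SERPINA1 had 3, 1 and 0 counts, APOA2 5, 1 and 1, and FGA 17, 0 and 5. Other members of the list had many counts in every library, among them the clotting factors F2, with 3923, 4184 and 3228, and F9, with 1431, 2104 and 1675, and SERPINC1, antithrombin, with 574, 344 and 646.

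Transporters and oxidising enzymes were part of the same group. SLC5A8, a sodium-coupled carrier of lactate and short-chain fatty acids, had 2 counts in IM, 489 in CM and 31 in CMT, 19.4-fold above IM (4.93 to 167), the only called member of 42 compared sugar, monocarboxylate and amino acid transporters. SLC13A4, a sulfate carrier, had 18, 91 and 96 counts, 6.67-fold above IM (4 to 11.7). CYP27A1, the mitochondrial sterol 27-hydroxylase, had 94, 980 and 222 counts, 2.95-fold above IM (2.31 to 3.8). CYP2A19, a cytochrome P450 of the pig that breaks down skatole, had 2 counts in IM, 2411 in CM and 14 in CMT, 8.76-fold above IM (2.01 to 79.4). That value rests on 2 and 14 counts, and its call was lost under total-count scaling and when libraries were thinned to equal depth. The fall from 2411 counts in CM to 14 in CMT was called.

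The remaining named genes of this pattern differ in function. PLK5, an atypical polo-like kinase, had 19 counts in IM, 181 in CM and 287 in CMT, 18.9-fold above IM (11.9 to 31.8). RPL31, a protein of the large ribosomal subunit, had 1055, 4413 and 2985 counts, 3.54-fold above IM (3.3 to 3.8). It was the only called member of 72 compared cytosolic ribosomal protein genes. That list's median log2 fold was 0.28 in CM against IM, with 71 of 72 above 0, and -0.01 in CMT against IM, with 30 of 72 above 0, and reads of ribosomal pseudogenes cannot be told apart from those of the genes. SERPINA4, kallistatin, had 56, 262 and 151 counts, 3.37-fold above IM (2.47 to 4.67). PIGR, which carries immunoglobulin A across epithelium, had 497, 1595 and 889 counts, 2.24-fold above IM (2 to 2.5), a call lost with total-count scaling.

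Interferon-stimulated genes, which cells switch on after they sense virus or type I interferon, lay mostly above IM in both castrated pools, though most were not called. Of 53 compared members, 9 (17%) were called higher in CMT than in IM, where 0.905% of all compared genes were, and none lower. In CMT against IM 51 lay above 0, and the median log2 fold was 0.79, beside -0.01 for all genes. In CM against IM 6 were called higher, where 1.2% of all compared genes were, 50 lay above 0 and the median was 0.53. Between CMT and CM none was called, with a median of 0.11. ISG15, a ubiquitin-like modifier, had 427 counts in IM, 1559 in CM and 1434 in CMT, 4.2-fold above IM in CMT (3.77 to 4.69). MX1, a GTPase that traps viral particles, had 624, 1978 and 1586 counts, 3.18-fold above IM (2.9 to 3.49). IRG6, the pig name of RSAD2 (viperin), had 111, 319 and 340 counts, 3.83-fold above IM (3.08 to 4.79). ISG15, MX1 and IRG6 were not called between CMT and CM, so that by the rule IM was the pool apart. Their CMT levels still lay above CM, 1.31-fold (1.22 to 1.41), 1.15-fold (1.07 to 1.22) and 1.52-fold (1.3 to 1.78).

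The other called members were nearer to the threshold. USP18, the protease that removes ISG15, had 251, 630 and 635 counts, 3.16-fold above IM (2.73 to 3.68), and CMPK2 had 75, 257 and 167, 2.79-fold above IM (2.11 to 3.71). The ubiquitin ligase genes HERC5 and HERC6, which lie side by side, were 3.12-fold (2.47 to 3.96) and 2.53-fold (2.08 to 3.07) above IM. OAS1 and OAS2, also neighbours, make the messenger that activates RNase L and were 2.34-fold (2.19 to 2.49) and 2.38-fold (2.22 to 2.55) above IM. ISG12(A), a small mitochondrial protein induced by interferon and not in the list, had 1026, 2355 and 2810 counts, 3.43-fold above IM (3.19 to 3.68). The membrane genes IFITM2 and IFITM3 had 116, 580 and 232 counts and 138, 563 and 241 counts; their CMT folds over IM of 2.5 (1.99 to 3.15) and 2.18 (1.76 to 2.71) were not called, and reads of these close copies may be split arbitrarily. Over the 9 called members the fold over IM ran from 2.34 to 4.2 in CMT and from 1.2 to 3.2 in CM. For 8 of the 9 the CMT level lay above that of CM.

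**Figure D4:**
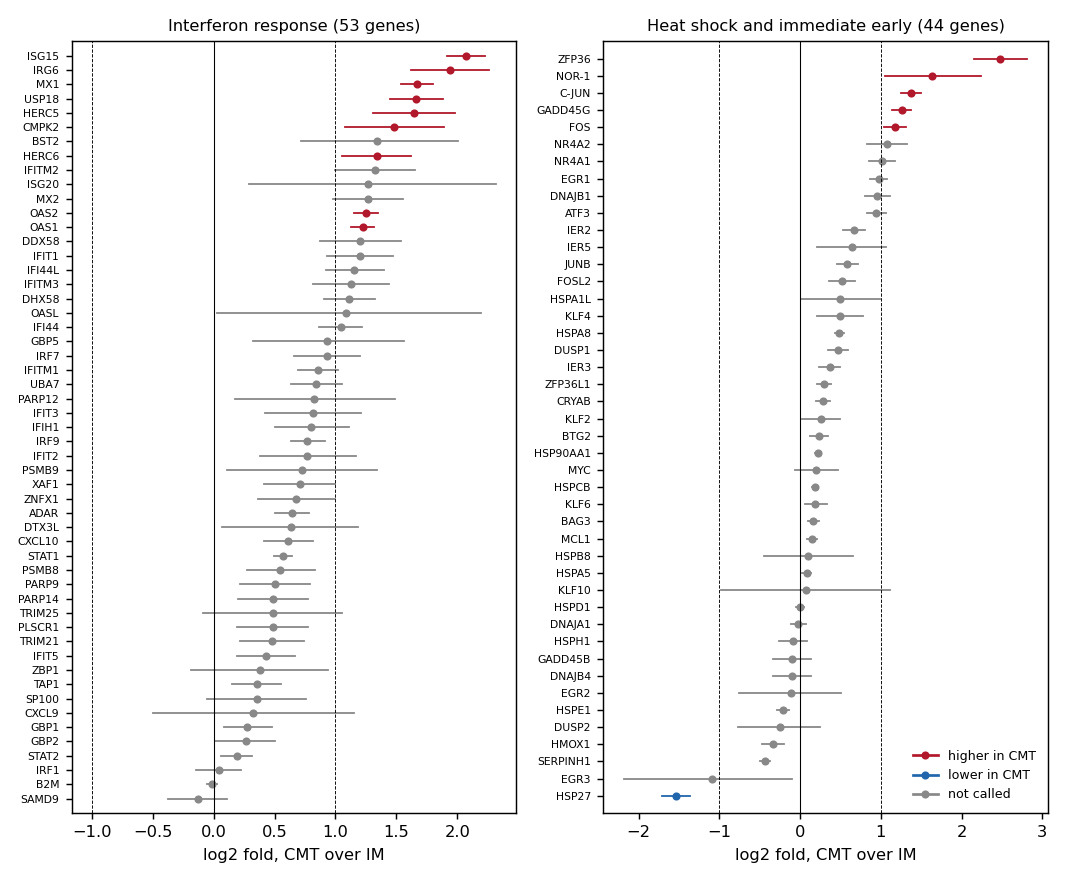
Log2 fold of CMT over IM (linear axis, 0 is the IM level, broken lines mark 2-fold) for each compared member of the interferon list (left, 53 genes) and of the heat shock and immediate-early list (right, 44 genes); bars are exact 95% counting intervals and colour marks called genes. Of the members, 51 on the left and 32 on the right lie above 0, and HSP27 is the one called lower.

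Genes that stood low in both castrated pools had fewer names, 10 of 25. NELL2, a secreted protein of neurons and of the male tract, had 340 counts in IM, 19 in CM and 6 in CMT, 45.3-fold lower in CMT than in IM (20.6 to 124). CCL8, a chemokine for monocytes, had 396, 91 and 111 counts, 2.85-fold lower (2.3 to 3.55). MEP1B, the beta subunit of the brush-border protease meprin, had 1232, 620 and 425 counts, 2.32-fold lower (2.07 to 2.59). PVALB1, a parvalbumin of the distal convoluted tubule and of muscle, had 94, 21 and 18 counts, 4.17-fold lower (2.5 to 7.35), while over the 10 compared markers of that tubule the median log2 fold was -0.02, with no other call. VSTM5, a membrane protein with an immunoglobulin fold, had 179, 72 and 37 counts, 3.87-fold lower (2.7 to 5.67), and FAM43B 651, 289 and 200, 2.6-fold lower (2.22 to 3.06). TMC5, a transmembrane channel-like protein, and SPHKAP, an anchor of protein kinase A, were 2.83-fold (2.13 to 3.8) and 4.26-fold (2.07 to 9.88) lower. None of these 8 genes was called between CMT and CM. This does not show equal levels, since few counts leave a wide interval, as for NELL2, whose CMT over CM interval was 0.147 to 1.17.

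For the 43 genes called higher in CMT against IM alone, both smaller differences had intervals that left out 1 in 28, while the interval of CM against IM held 1 in 8 and that of CMT against CM in 7. Of the 30 lower genes these were 21, 3 and 6. GSTA1, a glutathione transferase that also isomerises steroid precursors, had 2084 counts in IM, 3817 in CM and 4561 in CMT, 2.74-fold above IM (2.6 to 2.88). ST3GAL1, a sialyltransferase, had 1960, 4573 and 3990 counts, 2.55-fold above IM (2.41 to 2.69). EIF2S2, a subunit of translation factor eIF2, had 11, 48 and 77 counts, 8.76-fold above IM (4.63 to 18.3), and DBNDD2 had 11, 44 and 61, 6.94-fold above IM (3.62 to 14.6). NFKBIA, the inhibitor that holds NF-kappaB in the cytoplasm, had 690, 1042 and 1263 counts, 2.29-fold above IM (2.09 to 2.52). MMP7, a protease of injured tubules, had 128, 171 and 283 counts, 2.77-fold above IM (2.24 to 3.44), the only called member of 51 compared matrix and fibrosis genes. STEAP1, a metalloreductase of prostate, had 13, 39 and 45 counts, 4.33-fold above IM (2.3 to 8.75), and TNFRSF9, a costimulatory receptor, had 8, 16 and 35, 5.47-fold above IM (2.49 to 13.7). MSR1, the macrophage scavenger receptor, had 34, 56 and 83 counts, 3.05-fold above IM (2.03 to 4.7), a call lost with total-count scaling and with libraries thinned to equal depth.

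On the lower side CYP1A1, the P450 induced through the aryl hydrocarbon receptor, had 186 counts in IM, 88 in CM and 27 in CMT, 5.51-fold lower in CMT than in IM (3.67 to 8.58). PRSS53, a serine protease, had 917, 490 and 184 counts, 3.98-fold lower (3.4 to 4.69). ARMC10, a mitochondrial armadillo-repeat protein, had 173, 125 and 34 counts, 4.07-fold lower (2.8 to 6.06), and VAMP5, a vesicle fusion protein, had 68, 43 and 14, 3.88-fold lower (2.16 to 7.48). TLE3, a corepressor of transcription, had 147, 74 and 37 counts, 3.18-fold lower (2.2 to 4.69). OARD1, which removes ADP-ribose from proteins, had 59, 48 and 9 counts, 5.24-fold lower (2.58 to 12), and the antizyme gene OAZ3, known from testis, had 132, 72 and 32, 3.3-fold lower (2.23 to 5.02). For these genes neither step from CM was called beyond 2-fold. For OARD1 the interval of the level in CM over IM, 0.476 to 1.06, held 1 while that of CMT over CM, 0.116 to 0.552, did not. TLE3 was the reverse, with 0.329 to 0.587 for CM over IM and 0.468 to 1.07 for CMT over CM.

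The genes called in CM against IM were also sorted by where CMT stood. The share back within 2-fold of IM was 58.7% of the genes lower in CM, 46.5% when genes of any level were compared, and 25.9% of the genes higher in CM. Of the 235 genes called lower in CM than in IM, the CMT interval lay wholly within 2-fold of IM for 138 (58.7%), crossed the 2-fold line for 65 (27.7%), stayed beyond 2-fold below IM for 25 (10.6%) and lay beyond 2-fold above IM for 7 (2.98%). Of the 185 genes called higher in CM, it lay wholly within 2-fold for 48 (25.9%), crossed the line for 82 (44.3%), stayed beyond 2-fold above IM for 55 (29.7%) and lay beyond 2-fold below IM for 0. These shares also depend on counts, since few counts give a wide interval, as for CYP2A19 with 2 counts in IM (2.01 to 79.4). Among genes with a mean of at least 5 CPM, CMT was within 2-fold for 72.3% of the lower and 39.7% of the higher genes. Because IM stands in both comparisons, the shares describe the 3 libraries and do not test whether losses return more readily than gains.

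**Figure D5:**
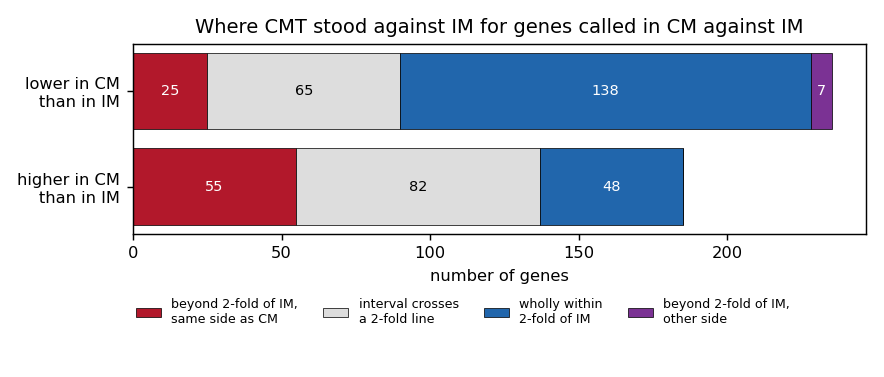
Genes called lower (235, upper bar) and higher (185, lower bar) in CM than in IM, as numbers of genes on a linear axis from 0; coloured segments split each bar by where CMT stood against IM. Within 2-fold of IM lie 138 of the lower and 48 of the higher genes.

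Genes of the first kind included the receptor for oestrogen, genes of the CYP4A family and a fatty acid carrier. ESR1 had 252 counts in IM, 18 in CM and 140 in CMT, 1.44-fold lower in CMT than in IM (1.17 to 1.78). CYP4A24, a fatty acid omega-hydroxylase, had 27720, 6767 and 26390 counts. CYP4A21, of the same P450 family, had 15287, 3628 and 14528 counts. Both stood 1.19-fold above IM in CMT (1.17 to 1.21 and 1.16 to 1.22), and reads of these near-identical genes may be split arbitrarily. SLC27A2, a fatty acid carrier and acyl-CoA synthetase, had 4736, 1682 and 4375 counts, 1.16-fold above IM (1.11 to 1.2). ELL2, an elongation factor and known androgen target, had 639, 271 and 612 counts, 1.2-fold above IM (1.07 to 1.34). S100A11 had 351, 20 and 235 counts, 1.19-fold lower in CMT (1.01 to 1.41). CD44, the hyaluronan receptor, had 2631, 844 and 3601 counts and stood 1.71-fold above IM (1.63 to 1.8), and CCL4, a chemokine, had 334, 61 and 182 counts, 1.47-fold lower (1.22 to 1.77). Of the second kind, HSD17B2, which oxidises testosterone and oestradiol to weaker steroids, had 351, 1686 and 365 counts, 1.3-fold above IM (1.12 to 1.51). POAT1-1, the pig organic anion transporter SLC22A6, had 2468, 9149 and 3135 counts, 1.59-fold above IM (1.51 to 1.68).

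Most genes that handle testosterone or answer to it were not called, though some lists exceeded the 1.5% called among all compared genes. SRD5A1, which reduces testosterone to dihydrotestosterone, had 267 counts in IM, 406 in CM and 297 in CMT, 1.39-fold above IM (1.18 to 1.65). FKBP5, a cochaperone that androgens and glucocorticoids induce, had 2137, 1286 and 1757 counts, 1.03-fold above IM (0.965 to 1.1), and ODC, the first enzyme of polyamine synthesis, had 2199, 2337 and 2011, 1.14-fold (1.08 to 1.22). None of 28 compared steroid and related nuclear receptors was called, with a median log2 fold of 0.05. Of 38 androgen- and glucocorticoid-responsive genes STEAP1 and PIGR were called higher (5.26%) and none lower, with a median of 0.02. Of 23 steroid metabolism enzymes HSD17B6, SULT2A1 and RDH16 were called higher (13%) and none lower, with a median of 0.15. Of 30 P450 and other phase I enzymes CYP2A19 and CYP27A1 were called higher and CYP1A1 lower (10% called), with a median of 0.18. Of 34 conjugation and glutathione enzymes GSTA1 and ACSM5 were called higher (5.88%), with a median of 0.12.

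Lipid and sugar pathways held few calls in number, given here beside the 1.5% called among all compared genes. Of 48 compared genes of fatty acid oxidation and PPAR targets, PDK4, ANGPTL4 and CREB3L3 were called higher (6.25%) and none lower. The median log2 fold of that list was 0.07 in CMT against IM and -0.14 in CM against IM. The 24 cholesterol synthesis genes had no call and a median of 0.09, and of 40 genes of lipid uptake and storage MSR1 alone was called (2.5%). PCK1, the gate enzyme of gluconeogenesis and one of the most abundant mRNAs of the proximal tubule, had 112992 counts in IM, 101824 in CM and 181368 in CMT, 2.01-fold above IM. Its interval, 1.99 to 2.02, crossed the threshold, and it was called with DESeq2 size factors. PDHB was the only called gene of 49 in gluconeogenesis and glycolysis (2.04%), whose median was 0.03.

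Transport, hormone and injury lists were close to the median of all genes. None of 52 electrolyte and water transport genes, 30 organic ion transporters or 21 genes of vitamin D, calcium and phosphate was called, with medians of 0.03, 0.00 and 0.00. CYP27B1, which activates vitamin D, had 435 counts in IM, 482 in CM and 682 in CMT, 1.96-fold above IM (1.74 to 2.22), which was not called. None of 28 tubular injury and repair genes was called, and LCN2, a secreted marker of tubular injury, had 253, 317 and 205 counts, 1.01-fold of IM (0.839 to 1.22). Of 25 cell cycle and replication genes only RPA3 was called, yet the list's median was -0.34 in CMT and -0.23 in CM against IM, with 5 of 25 above 0 in CMT.

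Markers of kidney segments gave a check of the tissue. Proximal tubule markers had a summed level of 36378, 35245 and 43755 CPM in IM, CM and CMT, with no call among 25 and a median log2 fold of 0.04, and the sum is carried by PCK1 and a few other abundant genes. Loop of Henle markers summed to 7900, 8908 and 10223 CPM, podocyte markers to 463, 507 and 548, endothelial markers to 835, 809.5 and 825 and stromal markers to 989, 907 and 855, with no call in any of these lists. Of the 13 podocyte markers 12 lay above 0 in CMT against IM, with a median log2 fold of 0.26. The 3 compared red blood cell markers all lay above 0, with a median of 0.73, no call and a summed level of 123, 142 and 183 CPM over the whole list, and HBB, beta globin, stood at 55.6, 69.9 and 95.3 CPM in IM, CM and CMT. UMOD, uromodulin of the thick ascending limb, had 94626, 130566 and 105591 counts, 1.4-fold above IM in CMT (1.38 to 1.41), LRP2, the endocytic receptor megalin, was 1.15-fold lower (1.08 to 1.22), and NPHS1, nephrin of the podocyte, 1.29-fold above IM (1.02 to 1.62). Lymphocyte and plasma cell markers summed to 199.9, 312 and 204 CPM, and their median log2 fold over IM was 0.53 in CM and 0.01 in CMT. In pooled tissue, fewer cells of a type and less RNA per cell cannot be told apart.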

How the data were processed

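Kidney RNA of 9 pigs was measured in 3 pooled libraries, 1 per group of 3 pigs. The authors deposited 1 table of raw counts per gene, in whole numbers. FastQC is named in the submitters' processing notes; build, annotation, aligner, counter and use of strand are not given in the sources used here. Antisense and overlapping genes therefore cannot be told apart. The labels name an Ion Torrent library kit and the design text an Illumina sequencer in triplicate; this was not settled. Of 19902 numbered genes, 1556 received a symbol from the RefSeq table of assembly Sscrofa11.1, and 3798 compared genes had none. A column without a name, with 4 values, was not used.

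Libraries were scaled by TMM factors (1.00592 in IM, 1.0216 in CM, 0.973096 in CMT; edgeR 4.0.16, R 4.3.3). Folds are ratios of scaled counts with exact 95% Clopper-Pearson intervals (scipy 1.17.1, Python 3.11.15). The code was tried on simulated counts with counting error alone, which cannot show how the intervals do under spread between pigs. Log2 folds carry a prior count of 2. Intervals, and the limit of 3 counts that a count of 0 allows (0.181 CPM in IM, 0.159 in CM, 0.227 in CMT), cover counting error only. Where a library held 0 counts, the near end of the exact interval is given as the fold. No p-value is given, since no spread between pigs could be estimated. Ribosomal RNA took 2.03%, 1.73% and 2.14% of counts and mitochondrially encoded genes 8.45%, 8.83% and 8.43%, in IM, CM and CMT. Genes were named if among the 12 farthest in each direction, the 8 farthest per pattern and direction, the 3 farthest called members of a list, or a fixed set; others (ELL2, SLC27A2, CCL4, AFP, MEP1B, SERPINA4, SLC13A4, SPHKAP, TFR2, SDR9C7, HERC6, CMPK2, OAS1, OAS2, NOR-1, IFITM2, IFITM3, ACTA1, CKM and numbered genes) were chosen after their values were seen. ODC and POAT1-1 are the table's names for ODC1 and SLC22A6 of the fixed set. Members and all 44 lists were chosen with earlier results of these data known, and lists are described by counts and medians without a set test. HAVCR1, of the fixed set, was too low to compare (1 count in IM, 1 in CM, 0 in CMT). The planned search of promoters was not run.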

Additional observations from a re-analysis of the deposited data

How the results depend on the processing

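Across 9 alternatives, 765 values of the 87 named genes, 70 of them called, were recomputed: 71 calls were lost, 1 was gained and none changed direction. The gain was PCK1 with DESeq2 1.42.0 size factors. Scaling by total counts, with or without ribosomal and mitochondrial genes, moved the median of all genes from -0.01 to -0.06 and lost the calls of CYP2A19, FOS, MFSD2A, MSR1 and PIGR. Thinning all libraries to the smallest lost those of CYP2A19, MSR1 and NSL1. An interval with a 0.1% error rate (the stricter interval below) lost 21 calls and a 3-fold threshold 37, as both rules are stricter by construction. Close to the threshold stood 50 called genes with a bound of 2 to 2.2 and 92 uncalled ones with a bound of 1.8 to 2, and 249 genes with a mean of 1 to 1.1 CPM were compared while 243 with 0.9 to 1 CPM were not.

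Genes higher in CMT than in IM numbered 89 with a mean of at least 5 CPM, 81 with the stricter interval and 53 beyond 3-fold, and lower genes 43, 50 and 37. Under the same settings in that order, genes high in CMT alone numbered 19, 21 and 15, genes low in CMT alone 16, 14 and 12, and genes higher in the CMT against IM comparison only 24, 21 and 12. Genes with IM apart numbered 33 with the stricter interval and 23 beyond 3-fold when higher, and 13 with at least 5 CPM, 13 with the stricter interval and 9 beyond 3-fold when lower. Genes beyond the intact level numbered 3 beyond 3-fold. Genes lower in CMT against IM only numbered 51 without a filter, 14 with at least 5 CPM and 16 beyond 3-fold. Of the genes higher in CM, CMT was back within 2-fold of IM for 39.7% with at least 5 CPM and for 19.4% with the stricter interval. Of those lower in CM, it was back for 46.5% without a filter, 72.3% with at least 5 CPM, 51.7% with the stricter interval and, within 3-fold, 70.3%. The remaining settings kept each of these counts within 1.5 times. Of 484 list medians 12 moved by 0.1 or more, all in lists of inflammation or of other cell types.

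No paired analysis was possible because each group is 1 pooled library. No library was left out, since each is the only one of its group, and promoter sequences were not searched.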

Other observations

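Some genes called in CMT against IM were neighbours. In the gene order of the RefSeq table (assembly Sscrofa11.1), 12169 compared genes could be placed, 122 of them called. Of their pairs of next compared neighbours, 13 had both genes called, 21 genes in all, and in all 13 both were higher in CMT. They were the run from MT-2B to MT1A, the run from SDR9C7 to LOC100626199, OAS2 with OAS1 and HERC5 with HERC6. The others were SULT2A1 with LOC102165433, ISG15 with AGRN, LOC102159040 with ST3GAL1, and ISG12(A) with UABP-2 and LOC100153899. AGRN, the matrix proteoglycan agrin, had 149 counts in IM, 294 in CM and 298 in CMT, which put CMT 2.5-fold above IM (2.05 to 3.07). LOC102159040 had 0, 55 and 28 counts, at least 8.88-fold above IM in CMT by the near end of its exact interval. In 8 of the pairs no other RefSeq gene lies between, in the others genes that were not compared do, and no chance level was set for the number of pairs.

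Genes without a name held some of the widest differences. LOC100525046 had 277 counts in IM, 229 in CM and 2 in CMT, 111-fold lower in CMT than in IM (30.4 to 919). LOC100738381 had 425, 31 and 8 counts, 42.5-fold lower (21.4 to 99). LOC100624831 had 2, 0 and 89 counts, 55.7-fold higher in CMT (15 to 467), and LOC102167096, typed as ncRNA, had 14, 1268 and 209, 18.7-fold higher (10.9 to 34.8). These genes were chosen after their values were seen. Of the 232 called genes 124 had no symbol, and 38 were of types other than mRNA.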
